A study of Mus musculus with 6 samples.

Results

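The proteasome genes were read here in adrenal glands of mice that lack chromogranin A (Chga), a protein of the secretory granules of the adrenal medulla. Members were all probe sets whose only gene symbol in the platform annotation begins with Psma, Psmb, Psmc, Psmd, Psme, Psmf or Psmg and a number. This gave 58 probe sets of 46 genes, out of 12422 probe sets of 8251 named genes on the array. Psmc3ip and Psme3ip1 match the pattern but encode binding partners rather than proteasome parts, so they were set apart. The other 44 genes had 56 probe sets: 17 genes of the 20S core, 20 of the 19S cap, 3 activators (Psme1, Psme3 and Psme4) and 4 assembly chaperones (Psmg1 to Psmg4). No Psmf gene was among them. Another activator, represented by 2 probe sets that also list a second gene, fell outside the rule. Each gene was represented by its probe set of highest mean signal over the 6 arrays.

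The study set 3 arrays of Chga knockout mice beside 3 arrays of wild-type mice. All mice were male and 12 weeks old, and each array held biotin-labelled cRNA from whole adrenal tissue, read here as 1 animal. The labels give the genotypes as knockout and wild type without naming the deleted exons or the genetic background. A whole gland joins cortex and medulla, so fewer cells of a type and less RNA per cell cannot be told apart in these values. Values are MAS5 signals, a linear brightness per probe set. The groups were compared as log2(signal + 16) with limma, and a gene was called at a Benjamini-Hochberg adjusted p under 0.05 over all 7453 probe sets that passed a brightness filter. Errors are SD over 3 arrays for signals and SE for log2 changes.

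The proteasome is the protease that degrades proteins tagged with ubiquitin. Its 20S core is a barrel of alpha subunits (Psma) at the ends and beta subunits (Psmb) in the middle, and the beta subunits encoded by Psmb5, Psmb6 and Psmb7 carry the active sites. The 19S cap recognises and unfolds substrates, with ATPases encoded by the Psmc genes and mostly receptors and scaffolds by the Psmd genes. In immune cells and under interferon, Psmb8, Psmb9 and Psmb10 take the places of Psmb5, Psmb6 and Psmb7 and form the immunoproteasome.

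The labels fitted the targeted gene. Chga read 1189, 858 and 951 on knockout arrays 1 to 3, against 46719, 30213 and 35306 on wild-type arrays 1 to 3. The gland's own markers were present: all 7 cortex genes and all 6 chromaffin genes of the marker lists that were on the array passed the brightness filter. Summed chromaffin signal was 192737, 205552 and 196577 on the knockout arrays and 179822, 161962 and 163133 on the wild-type arrays, without overlap. Of the 6 chromaffin genes, 5 had a log2 change above 0. Cortex sums overlapped, at 633078, 649647 and 570388 in the knockout and 563424, 648857 and 531910 in the wild type. Knockout arrays 2 and 3 differed from the others in some markers of other tissues. The summed signal of 13 skeletal muscle genes was 10714, 83179 and 42650 on knockout arrays 1 to 3, and between 11210 and 11486 on the wild-type arrays. Only 8 of these muscle genes were tested, and 5 of the 8 had a log2 change above 0. The summed signal of 12 macrophage genes was 24660, 43604 and 36472 on the knockout arrays and between 20501 and 25268 on the wild-type arrays. All 10 macrophage genes that were tested had a log2 change above 0. Summed adipocyte signal was 30788, 45381 and 45394 on the knockout arrays and 22400, 25964 and 37069 on the wild-type arrays, and summed endothelial signal 29955, 38977 and 37212 on the knockout arrays and 28019 to 29206 on the wild-type arrays. Liver and kidney sums overlapped between genotypes, at 16510, 35377 and 25358 for liver in the knockout and 15272, 12807 and 34929 in the wild type. For kidney they were 957, 701 and 1369 in the knockout and 1033, 1776 and 1013 in the wild type. Lymphocyte sums were 5973, 8027 and 6902 in the knockout and 3836, 6194 and 6052 in the wild type. The Gapdh 3' to 5' signal ratio, a sign of RNA or cRNA integrity, was 0.831, 1.30 and 1.29 on the knockout arrays and between 0.762 and 0.806 on the wild-type arrays. For beta-actin the ratio was 1.32, 1.69 and 1.72 on the knockout arrays and between 1.14 and 1.22 on the wild-type arrays. In both ratios knockout array 1 also lay above every wild-type array. None of these markers was at 0 on any array. Those under the filter signal of 582 on all 6 arrays were Myh2 (muscle), Aif1 (macrophage), Cd3e, Cd3g and Ptprc (lymphocyte), Apoa1 (liver), and Umod, Slc12a1 and Slc34a1 (kidney).

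No proteasome gene passed the test between the genotypes. Of the 44 genes, 42 were bright enough to be tested, and 0 of 42 were called by limma. Over all probe sets tested the share called was 0.443%, with 0.282% lower and 0.161% higher in the knockout. At an unadjusted p under 0.05, 6 of the 42 genes (14.3%) were lower and 0 were higher, where the shares over all probe sets were 6.25% lower and 5.06% higher. In 7 genes (16.7%) all 3 knockout arrays lay below all 3 wild-type arrays, against 8.83% of all probe sets, and in 0 genes above them, against 7.55%. Log2 changes were below 0 in 29 genes (69.0%), against 51.1% of all probe sets. The median log2 change was -0.15 over the 42 genes, with a range from -0.68 to 0.20, and -0.01 over all probe sets. Taking the 95% intervals of single genes, the lowest bound was -1.22 for Psmb5, a 2.33-fold lower signal, and the highest was 0.69 for Psmc6, a 1.61-fold higher signal.

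**Figure D1:**
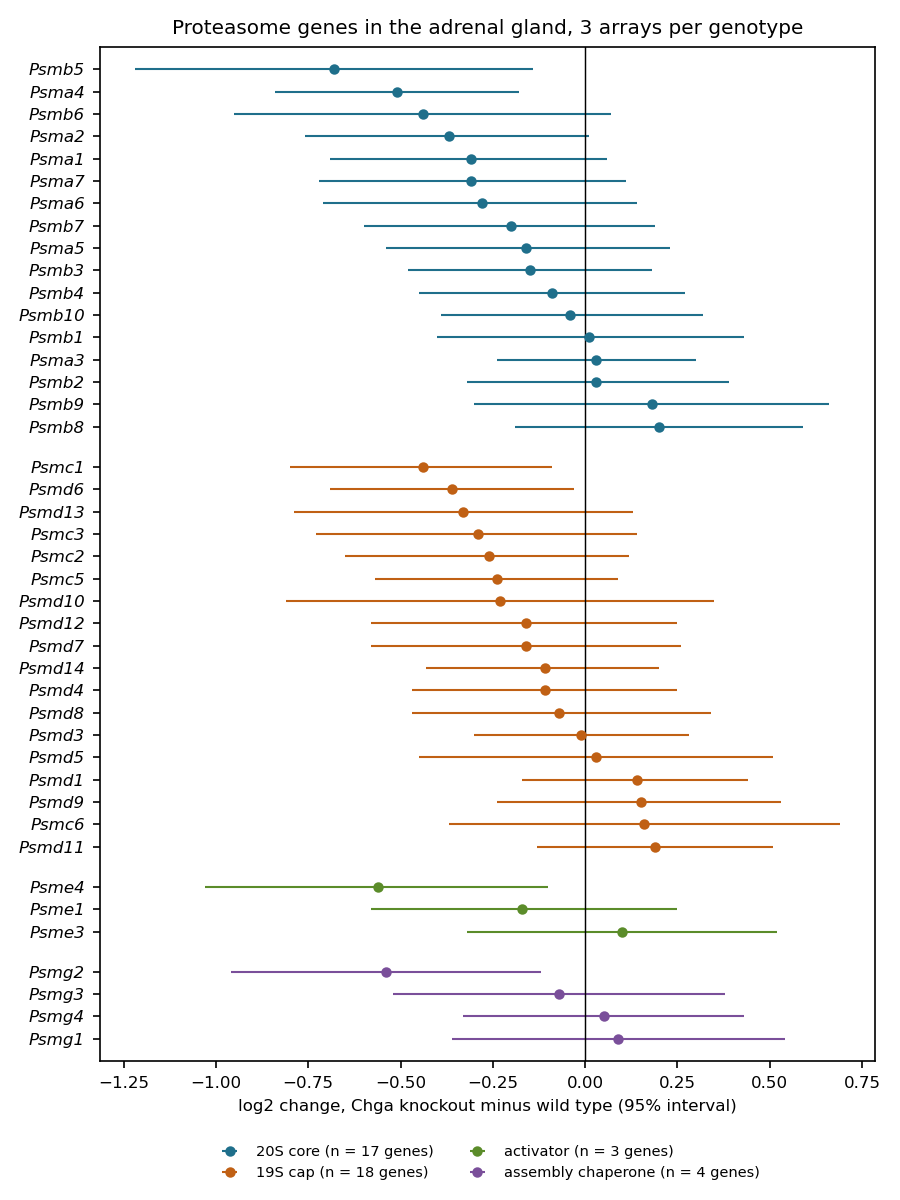
Log2 change (x axis, Chga knockout minus wild type) of the 42 tested proteasome genes (y axis), each a point with its 95% interval from limma, grouped and coloured by part of the complex. Points run from -0.68 for Psmb5 to 0.20 for Psmb8, and none of the 42 passed the adjusted threshold.

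These values rested on the arrays that went in. Without knockout array 1, 13 genes were lower at an unadjusted p under 0.05 and Psmb5 was called (log2 change -0.96, limma adjusted p = 0.0344). In that fit 9.58% of all probe sets were lower at that p, and 141 probe sets (1.89%) were called, so that 1 of 42 members called is near the overall share. The count of lower genes was 1 without knockout array 2, 2 without knockout array 3 and 2 without wild-type array 1, where the shares of all probe sets were 3.88%, 4.21% and 4.72%. Against the 3 wild-type arrays, knockout array 1 on its own gave a count of 0 (3.15% of all probe sets), and the medians were 0.04 for the 20S core, 0.02 for the 19S cap and -0.22 for the activators.

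In the alpha ring of the 20S core, 6 of 7 genes had values below 0 and the median log2 change was -0.31. These genes form the outer rings that gate entry to the barrel. Psma4 had the smallest p of all members. It read 10769, 9306 and 9949 on the knockout arrays, against 12885, 16790 and 13296 on the wild-type arrays, so that the groups did not overlap. Its log2 change was -0.51 ± 0.15 (95% interval -0.84 to -0.18, limma unadjusted p = 0.00658, adjusted p = 0.264). Psma2 read 21304, 17144 and 15461 in the knockout and 27995, 20521 and 21365 in the wild type. There knockout array 1 lay among the wild-type arrays, and the log2 change was -0.37 ± 0.17 (adjusted p = 0.452). Psma1 was the other alpha gene without overlap, at 2906, 2313 and 3074 in the knockout and 3603, 3443 and 3196 in the wild type (log2 change -0.31 ± 0.17, adjusted p = 0.511). Psma7, Psma6 and Psma5 had log2 changes of -0.31, -0.28 and -0.16, and Psma3 one of 0.03.

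The beta ring was more mixed, with 6 of 10 values below 0, a median log2 change of -0.06 and overlap between the groups in every gene. Psmb5, whose product is the chymotrypsin-like active site, had the lowest log2 change of any member. It read 21573, 11096 and 13075 on the knockout arrays and 28353, 20503 and 22177 on the wild-type arrays. Knockout arrays 2 and 3 were below all wild-type arrays and knockout array 1 was not. The log2 change was -0.68 ± 0.24 (95% interval -1.22 to -0.14, adjusted p = 0.385). Psmb6, the caspase-like site, read 11795, 7635 and 7458 in the knockout and 14735, 9188 and 12382 in the wild type, again with only knockout array 1 inside the wild-type range (log2 change -0.44 ± 0.23, adjusted p = 0.502). Psmb7, the trypsin-like site, read 13739, 10214 and 10050 in the knockout and 15049, 11000 and 13049 in the wild type (log2 change -0.20 ± 0.17, adjusted p = 0.689). The structural subunits Psmb1, Psmb2, Psmb3 and Psmb4 had log2 changes of 0.01, 0.03, -0.15 and -0.09.

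The inducible catalytic subunits Psmb8, Psmb9 and Psmb10 had a median log2 change of 0.18 and their standard counterparts one of -0.44. Psme1, an interferon-inducible activator gene planned for the same list, had one of -0.17 and is outside this median. Exact permutation tests of the pairs, given below, could not reach a p under 0.1 with 3 against 3 arrays. They therefore cannot decide on this difference. Psmb8 read 2816, 2427 and 2885 on the knockout arrays and 2694, 2051 and 2344 on the wild-type arrays, groups that overlapped (log2 change 0.20 ± 0.17, 95% interval -0.19 to 0.59, adjusted p = 0.695). Psmb9 read 1272, 1760 and 1524 in the knockout and 1535, 1176 and 1284 in the wild type, with knockout array 1 among the wild-type values (log2 change 0.18 ± 0.21, adjusted p = 0.784). Psmb10 read 4125, 3449 and 3524 in the knockout and 4190, 3395 and 3824 in the wild type (log2 change -0.04 ± 0.16, adjusted p = 0.95). Each array's log2 ratio of an inducible gene over its standard counterpart was then compared, as a difference between genotypes and not as a level. This ratio comparison was not planned. Psmb5 and Psmb8 had the lowest and the highest log2 change of all tested members, so their ratio joins the extremes of the same data. For Psmb8 over Psmb5 the ratio was -2.93, -2.19 and -2.17 on the knockout arrays and -3.39, -3.31 and -3.23 on the wild-type arrays. The knockout mean exceeded the wild-type mean by 0.88 without overlap, with an exact two-sided permutation p = 0.1, which is the smallest that 3 against 3 arrays can give, and adjusted p = 0.2 over the 3 pairs. This rests on the brighter Psmb5 probe set: with the dimmer one the ratio was 0.76, 0.85 and 1.25 on the knockout arrays and 0.33, 1.10 and 0.99 on the wild-type arrays, with overlap and a difference of 0.14. For Psmb9 over Psmb6 the difference was 0.62 and for Psmb10 over Psmb7 it was 0.17, both with overlap (exact permutation p = 0.2 and adjusted p = 0.2 for each). With knockout array 1 alone the differences were 0.38, -0.05 and 0.03. Knockout arrays 2 and 3 had the highest ratio in all 3 pairs and also the highest macrophage marker sums, whose part in the ratios was not tested.

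**Figure D2:**
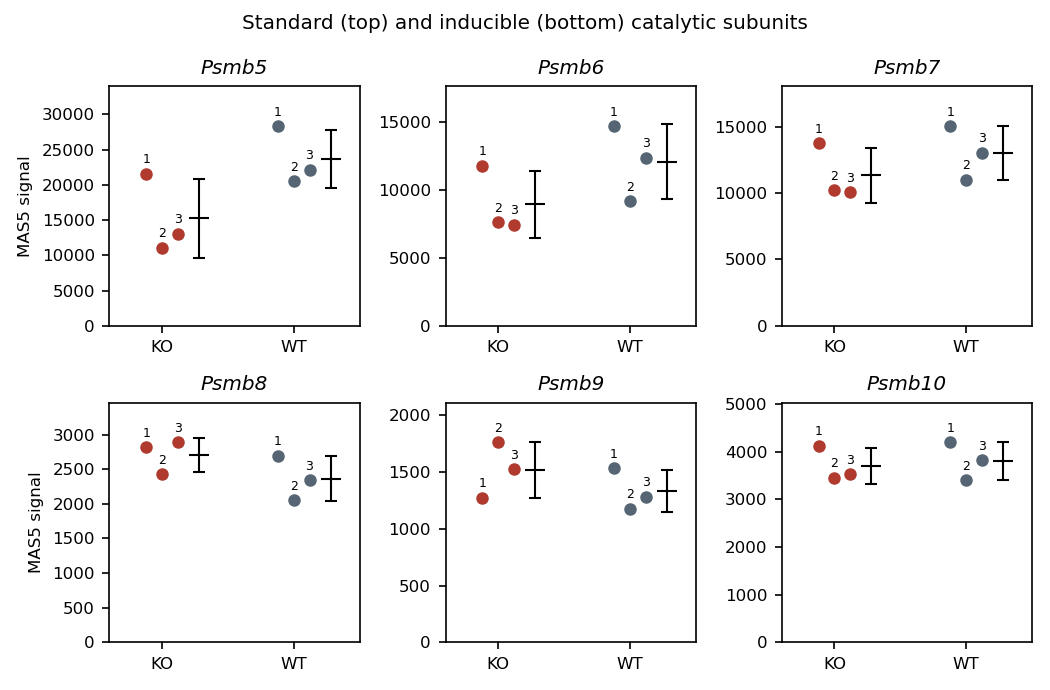
MAS5 signal (y axis, linear from 0) of the standard catalytic subunits (top) and their inducible counterparts (bottom) in 3 Chga knockout (KO, left) and 3 wild-type (WT, right) arrays, numbered by replicate. Points are single arrays and bars are mean ± SD. Knockout arrays 2 and 3 sit below every wild-type array for Psmb5, Psmb6 and Psmb7, while Psmb8, Psmb9 and Psmb10 overlap between genotypes.

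In the 19S cap, 18 of 20 genes were tested and 13 of them had values below 0, with a median log2 change of -0.14. The ATPases of its base, which thread substrates into the core, had a median of -0.26 over 5 genes, and the other subunits one of -0.11 over 13. Psmc1 read 6954, 5143 and 5774 on the knockout arrays and 8564, 8490 and 7169 on the wild-type arrays, with no overlap (log2 change -0.44 ± 0.16, 95% interval -0.80 to -0.09, adjusted p = 0.385). Psmc5 did not overlap either, at 8774, 6660 and 8101 in the knockout and 9646, 9202 and 8808 in the wild type (log2 change -0.24 ± 0.14, adjusted p = 0.558). Psmc2 and Psmc3 had log2 changes of -0.26 and -0.29. Psmc6 had one of 0.16 ± 0.23, with a low value of 9157 on wild-type array 1 against 13405 to 17761 in the knockout and 15498 and 17318 on the other wild-type arrays.

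Among the non-ATPase genes, Psmd6, a lid subunit, read 13272, 10110 and 10667 on the knockout arrays and 15644, 13434 and 14405 on the wild-type arrays. By the chosen probe sets it was the one tested non-ATPase gene without overlap (log2 change -0.36 ± 0.14, 95% interval -0.69 to -0.03, adjusted p = 0.408). A dimmer probe set of Psmd11, given below, was also lower without overlap. Psmd13, also of the lid, read 6078, 4438 and 3524 in the knockout and 6188, 5152 and 5925 in the wild type, so that knockout array 1 lay within the wild-type range (log2 change -0.33 ± 0.20, adjusted p = 0.575). The ubiquitin receptor gene Psmd4 and the deubiquitinase gene Psmd14 each had a log2 change of -0.11, and the large scaffold gene Psmd1 one of 0.14. Psmd3, Psmd7, Psmd8, Psmd11 and Psmd12 lay between -0.16 and 0.19. Psmd5, Psmd9 and Psmd10 encode chaperones that help to assemble the base rather than lasting subunits, and had log2 changes of 0.03, 0.15 and -0.23. Psmc4 and Psmd2 were too dim to be tested. Psmc4 read 315, 129 and 266 in the knockout and 383, 220 and 375 in the wild type. Psmd2 read 376, 139 and 222 in the knockout and 181, 379 and 159 in the wild type.

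Activators can cap the core in place of 19S. Psme4, which encodes the large nuclear activator PA200, read 1979, 1242 and 1675 on the knockout arrays and 2284, 2476 and 2365 on the wild-type arrays. All knockout arrays were below all wild-type arrays (log2 change -0.56 ± 0.21, 95% interval -1.03 to -0.10, adjusted p = 0.39). Psme1, a subunit of the interferon-inducible PA28, read 16500, 13464 and 11114 in the knockout and 18543, 13260 and 14215 in the wild type (log2 change -0.17 ± 0.18, adjusted p = 0.775). Psme3, the nuclear PA28 subunit, read 2913, 4323 and 3860 in the knockout and 3830, 3128 and 3278 in the wild type (log2 change 0.10 ± 0.19, adjusted p = 0.871). The median of the 3 was -0.17.

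Of the assembly chaperones, which pair up alpha subunits while the core is built, Psmg2 read 2314, 1751 and 1734 on the knockout arrays and 3171, 2587 and 2657 on the wild-type arrays, without overlap (log2 change -0.54 ± 0.19, 95% interval -0.96 to -0.12, adjusted p = 0.368). Its partner Psmg1 read 2726, 3293 and 2611 in the knockout and 2459, 3428 and 2284 in the wild type (log2 change 0.09 ± 0.20, adjusted p = 0.891). Psmg3 read 3029, 3810 and 5054 in the knockout and 4155, 4281 and 3787 in the wild type. Psmg4 read 4030, 3656 and 4589 in the knockout and 3917, 3418 and 4533 in the wild type. The genotypes overlapped in both, with log2 changes of -0.07 ± 0.20 for Psmg3 and 0.05 ± 0.17 for Psmg4 (adjusted p = 0.932 and 0.94). For the binding partner Psme3ip1 the log2 change was -0.25 ± 0.23 (adjusted p = 0.717), and Psmc3ip was too dim to be tested.

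Probe sets of the same gene did not always give the same value. Of the 5 genes with several tested probe sets, 3 had values of both signs. The brightest Psmd11 probe set gave 0.19, while the next one read 4901, 3881 and 4102 in the knockout and 7161, 5473 and 5646 in the wild type, without overlap (log2 change -0.50 ± 0.17, adjusted p = 0.351). For Psmb1 the brightest gave 0.01 and the next -0.28, and for Psmb5 the brightest gave -0.68 and the dimmer one 0.06 ± 0.31. For Psmc3 the brightest gave -0.29 and the others -0.53 (without overlap, limma adjusted p = 0.402) and -0.03. For Psmg3 the brightest gave -0.07 and the dimmer one -0.61 ± 0.65, with 1296, 312 and 2879 on the knockout arrays and 2021, 1263 and 1690 on the wild-type arrays. The chosen probe sets of Psma3, Psmb4, Psmb5, Psmb7, Psmc3 and Psmd12 carry name suffixes that mark probes that can match related transcripts.

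In the core and the ATPases the low medians came from knockout arrays 2 and 3. For the 14 standard 20S genes (all but Psmb8, Psmb9 and Psmb10), the median log2 difference from the wild-type mean was 0.04 on knockout array 1, -0.38 on knockout array 2 and -0.35 on knockout array 3. Over all tested probe sets it was 0.00, -0.02 and 0.03. On knockout arrays 2 and 3, 11 and 10 of the 14 genes lay below every wild-type array, or 78.6% and 71.4%, against 32.9% and 28.9% of all probe sets. On knockout array 1 it was 2 of 14, or 14.3%, against 25.8%. The 5 tested ATPase genes had medians of 0.09, -0.47 and -0.39 on the 3 knockout arrays, and the 13 non-ATPase genes 0.00, 0.01 and -0.13. The activators differed from this, with medians of -0.22, -0.17 and -0.45. Of the 42 genes, 9 (21.4%) were below every wild-type array on knockout array 1, against 25.8% of all probe sets: the 7 genes without overlap, Psme3 and Psmg3. On knockout arrays 2 and 3 it was 20 and 23 genes (47.6% and 54.8%). Skeletal muscle, macrophage, adipocyte, endothelial and chromaffin signals and the Gapdh and beta-actin ratios were also higher on knockout arrays 2 and 3. The endothelial and chromaffin sums and both ratios were above the wild-type range on knockout array 1 as well. The part of these signals and ratios in the proteasome values was not tested.

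**Figure D3:**
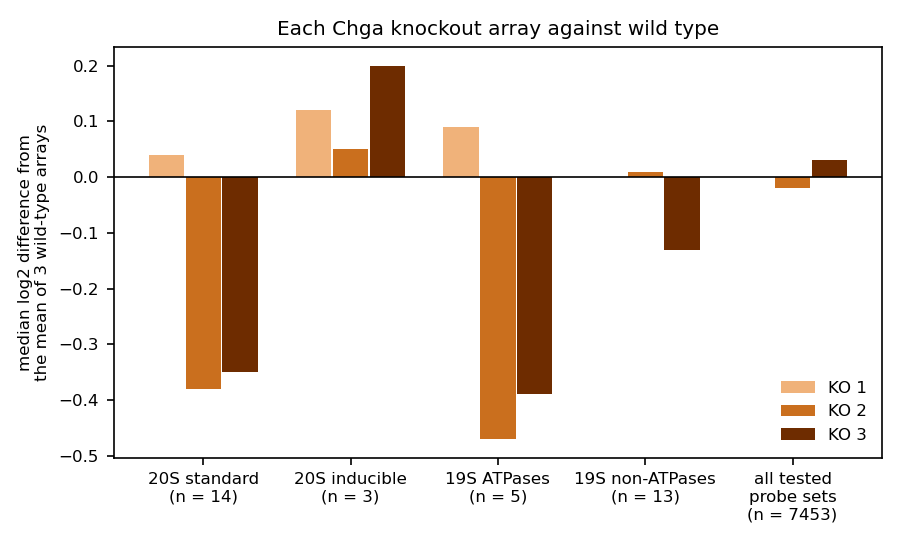
Median log2 difference (y axis) of each Chga knockout array (KO 1 to 3, bars) from the mean of the 3 wild-type arrays, for groups of proteasome genes and for all tested probe sets (x axis, n genes or probe sets). The 20S standard genes and 19S ATPases are at -0.35 or lower on knockout arrays 2 and 3 and at 0.04 and 0.09 on knockout array 1.

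Within each genotype the core genes also tended to move together from array to array. Of the 17 genes of the 20S core, 13 had their highest knockout value on array 1 and 14 had their highest wild-type value on array 1, or 76.5% and 82.4%, where the shares over all probe sets were 36.0% and 34.1%. Both held for 11 of the 17 (64.7%), against 16.8% of all probe sets. In the 19S cap both held for 7 of 18 genes (38.9%). The inducible genes shared the wild-type side of this, with wild-type array 1 highest in all 3. The genes that had their lowest wild-type value on array 1 were Psma4, Psmb1, Psmb2, Psmc6, Psmd1, Psmd10 and Psme4. The median within-genotype SD was 0.23 on the log2 scale over the 42 genes and 0.25 over all probe sets, which were not matched for brightness. It was 0.36 over Psmb5, Psmb6 and Psmb7 and 0.17 over Psmb8, Psmb9 and Psmb10. Genes share their arrays and are not independent, so these shares describe the 6 arrays and carry no test.

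**Figure D4:**
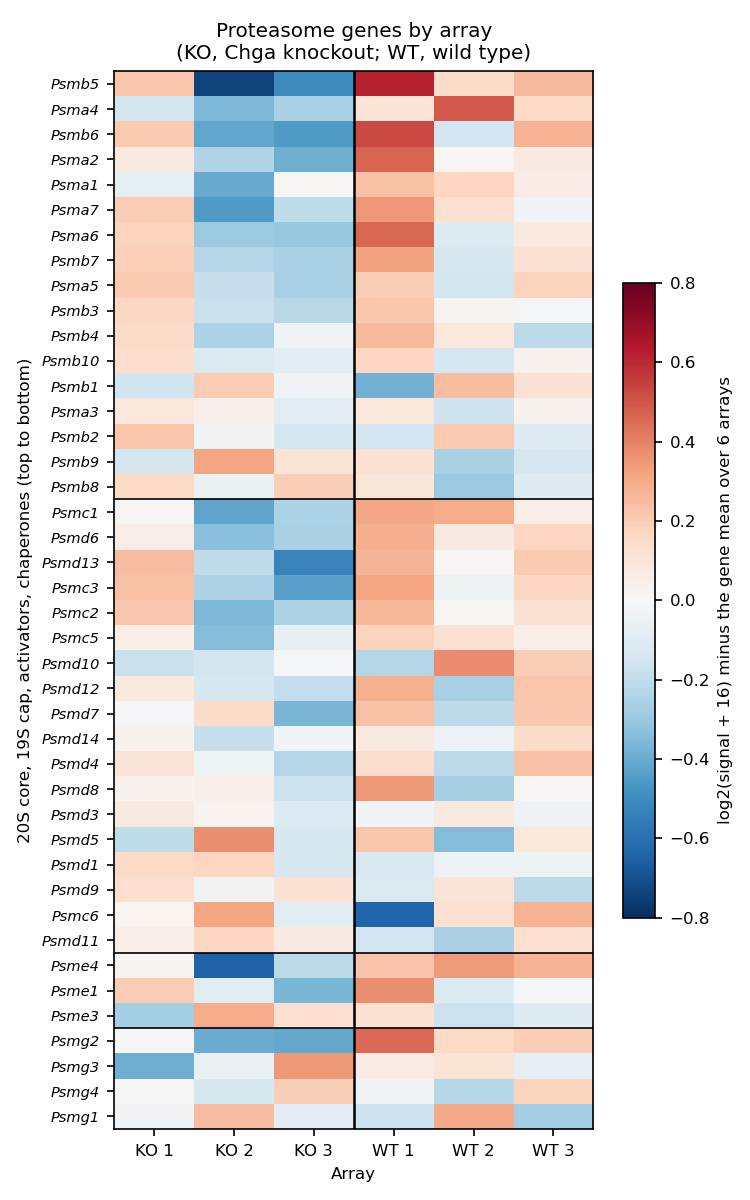
Deviation of each array (x axis, Chga knockout left, wild type right) from the gene's own mean log2 signal over 6 arrays (colour), for the 42 tested proteasome genes (rows, grouped by part of the complex). Knockout arrays 2 and 3 are blue and wild-type array 1 is red through most standard 20S genes and the ATPases, while Psmb1 and Psmc6 have their lowest wild-type value on array 1.

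Genes that work with the proteasome gave no calls either. Of 64 genes for ubiquitin transfer, delivery to the proteasome, its assembly and its transcriptional control, 41 were tested. Limma called 0 of them in either direction, against 0.443% of all probe sets. At an unadjusted p under 0.05, 3 (7.32%) were lower and 1 was higher, against 6.25% and 5.06% of all probe sets, and the median log2 change was -0.02. The arrays of the genotypes did not overlap in 7 of the 41, with 5 lower (12.2%) and 2 higher, against 8.83% and 7.55% of all probe sets. The 4 of smallest p were Faf1 and Ubqln1, which help to extract or deliver ubiquitin-tagged proteins, at -0.56 ± 0.20 and -0.45 ± 0.16, the autophagy receptor gene Sqstm1 at 0.31 ± 0.12, and the cysteine protease gene Blmh at -0.38 ± 0.16 (adjusted p = 0.39 for the first 3 and 0.423 for Blmh, no overlap in any of the 4). Faf1 read 1838, 1240 and 1376 on the knockout arrays and 2051, 2059 and 2383 on the wild-type arrays. Ubqln1 read 10828, 7272 and 8285 in the knockout and 12336, 12136 and 11106 in the wild type. Blmh read 5136, 4005 and 3964 in the knockout and 5693, 6084 and 5158 in the wild type. In these 3 genes knockout array 1 was the highest knockout array. Sqstm1 read 22773, 26301 and 24273 on the knockout arrays and 20359, 19115 and 19421 on the wild-type arrays, without overlap. Nfe2l1, the transcription factor that drives proteasome genes when the protease is impaired, had a log2 change of 0.06 ± 0.13, and the core maturation factor gene Pomp one of -0.05 ± 0.16. The proteasome-bound deubiquitinase genes Usp14 and Uchl5 had log2 changes of -0.21 ± 0.15 and -0.23 ± 0.29.

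Of 25 genes of antigen processing and interferon signalling, 15 were tested, with 0 called by limma, against 0.443% of all probe sets. At an unadjusted p under 0.05, 1 of the 15 was higher and 0 were lower, against 5.06% and 6.25% of all probe sets. The median log2 change was 0.14, against -0.01 over all probe sets. The log2 changes were 0.72 ± 0.27 for Irf9, an interferon signalling factor, and 0.48 ± 0.25 for Irf1, which drives immunoproteasome genes (adjusted p = 0.396 and 0.503). Irf9 read 1831, 3579 and 2813 on the knockout arrays and 1406, 1444 and 2024 on the wild-type arrays, with knockout array 1 inside the wild-type range. Irf1 read 1662, 2239 and 1314 in the knockout and 1406, 1017 and 1257 in the wild type. The class I heavy chain gene H2-K1 and the chaperone gene Pdia3 had log2 changes of 0.28 ± 0.16 and -0.31 ± 0.18 (adjusted p = 0.521 and 0.547). H2-K1 read 21042, 28440 and 30516 in the knockout and 22559, 20276 and 22105 in the wild type. Pdia3 read 16685, 10546 and 13586 in the knockout and 18578, 16480 and 14807 in the wild type, and the groups overlapped in Irf1, H2-K1 and Pdia3. The peptide transporter genes Tap1 and Tap2, which neighbour Psmb9 and Psmb8 in the major histocompatibility region, had log2 changes of 0.18 ± 0.17 and 0.05 ± 0.21 (adjusted p = 0.731 and 0.952). The genotypes did not overlap in 1 higher gene of this list, Tap1, and in 1 lower gene, the interferon gamma receptor gene Ifngr2, against 7.55% and 8.83% of all probe sets. Ifngr2 read 1130, 1142 and 1176 on the knockout arrays and 2249, 1266 and 1315 in the wild type, a log2 change of -0.43 ± 0.25 (adjusted p = 0.553).

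Promoter sequence was looked at because most standard core genes were low on knockout arrays 2 and 3 while the inducible ones were not. RefSeq windows of 300 bases around the start of transcription (GRCm38.p6) were matched for 37 of the 44 genes, and motifs were searched on both strands in any listed window of a gene. The antioxidant response element core TGANNNNGC was found in 21 of 37 genes (56.8%), against 45.0% of all 27025 genes with a window. It was found in 8 of 11 standard 20S genes, 2 of 3 inducible genes and 8 of 17 genes of the 19S cap. The NF-Y box CCAAT was found in 13 of 37 genes (35.1%), against 41.1% of all genes, with 6 of 11 standard 20S genes, 1 of 3 inducible genes and 5 of 17 genes of the cap. The gamma-activated site TTCNNNGAA, bound by interferon-activated factors, was found in 3 of 37 genes (8.11%), namely Psmb8, Psmd2 and Psmg1, against 9.55% of all genes, with 0 of 11 standard 20S genes, 1 of 3 inducible genes and 1 of 17 genes of the cap. A match describes these letters only and shows no binding.

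The windows given here are those of Psma4 and Psmb5, the core genes of smallest p and of lowest log2 change, and of Psmb8, the inducible counterpart of Psmb5. They run 5' to 3' on the gene's own strand, with matches to the 3 motifs in capitals. Psma4 and Psmb5 each hold 2 matches to the antioxidant response element core, and Psmb8 holds 1 such match and 1 gamma-activated site. A window with 2 matches was also found for Psmc2, Psmc6, Psmd12 and Psmg4, with log2 changes of -0.26, 0.16, -0.16 and 0.05. Of the other genes without overlap, Psma1, Psmc1, Psmc5 and Psmd6 hold 0 matches, Psme4 holds 1 and Psmg2 had no window. Any relation of matches to log2 changes was not tested.
Psma4 (GRCm38.p6, chr9:54950609-54950908, plus strand): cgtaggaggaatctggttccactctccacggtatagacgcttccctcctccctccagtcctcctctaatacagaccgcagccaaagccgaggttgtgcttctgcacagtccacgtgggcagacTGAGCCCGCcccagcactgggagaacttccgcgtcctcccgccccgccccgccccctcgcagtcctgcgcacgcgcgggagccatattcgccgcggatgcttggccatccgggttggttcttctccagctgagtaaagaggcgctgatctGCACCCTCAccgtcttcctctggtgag
Psmb5 (GRCm38.p6, chr14:54617946-54618245, minus strand): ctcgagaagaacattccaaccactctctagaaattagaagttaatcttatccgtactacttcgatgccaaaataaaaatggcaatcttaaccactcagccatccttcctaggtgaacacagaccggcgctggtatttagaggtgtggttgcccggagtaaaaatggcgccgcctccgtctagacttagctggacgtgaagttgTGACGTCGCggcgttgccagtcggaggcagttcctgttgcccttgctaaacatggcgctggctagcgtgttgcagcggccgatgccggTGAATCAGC
Psmb8 (GRCm38.p6, chr17:34197945-34198244, plus strand): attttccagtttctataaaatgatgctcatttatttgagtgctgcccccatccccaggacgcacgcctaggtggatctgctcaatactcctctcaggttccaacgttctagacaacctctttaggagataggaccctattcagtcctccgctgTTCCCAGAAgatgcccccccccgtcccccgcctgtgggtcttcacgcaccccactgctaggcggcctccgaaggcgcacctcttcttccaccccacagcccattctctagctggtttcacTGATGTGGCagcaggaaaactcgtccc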

How the data were processed

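RNA from adrenal glands of 3 Chga knockout and 3 wild-type mice was hybridised to single-colour Affymetrix arrays, 1 sample per array. The deposited values are linear array intensities that MAS5 produced (per the submitters' processing notes), with no version or scaling target named there. Their trimmed mean (2% off each end) was 2501 on every array, so no further scaling was applied. Of 12488 probe sets, 66 controls were left out. Symbols came from the platform annotation and, for the partner lists, were updated through Entrez identifiers with a RefSeq table (GRCm38.p6); no genome build is named for the array.

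Signals were taken as log2(signal + 16), and probe sets with a mean under the 40th percentile were dropped, which left 7453. This scale understates the change of dim genes. The fit of knockout minus wild type used limma 3.58.1 under R 4.3.3 (lmFit, eBayes with trend), and p-values were adjusted by Benjamini-Hochberg across the 7453; the script was tested on simulated data. Every adjusted p of a gene is from limma; the exact permutation tests used scipy 1.17.1. Precision rests on 3 arrays per genotype. The labels describe 3 mice per genotype but tie no array to an animal, so the spread could be partly technical.

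Members and lists were chosen with earlier results of these data known. Values in full were given for the 4 genes of smallest p in the core and in the cap, for activators, chaperones, inducible subunits and members without overlap, and for the 4 of smallest p in each partner list; other genes were named after their values were seen. Titles number the arrays 1 to 3 in both genotypes. Deviations of same-numbered arrays correlated with r = 0.255, -0.035 and -0.039, and those of other-numbered arrays with r between -0.181 and 0.250. The numbers were therefore not taken as pairs, although the value for the arrays numbered 1 was the highest. Alternatives changed the pseudocount, filter, scaling, variance model, weights, block, probe set, threshold and arrays.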

Additional observations from a re-analysis of the deposited data

How the results depend on the processing

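With 3 arrays per genotype, a gene that missed the threshold is not shown to be equal between genotypes. The count of called members stayed at 0 except without knockout array 1, and ranged from 0 to 1 over the fits that left out an array. Members lower at an unadjusted p under 0.05, a count chosen after seeing the data, ranged from 1 to 13 over those fits and was 0 with knockout array 1 alone. Chga kept its call in every setting, with log2 changes from -5.34 to -4.93. Over the fits that left out an array, medians ranged from -0.30 to -0.09 for the 20S core, from -0.23 to -0.06 for the 19S cap and from -0.31 to -0.02 for the activators. With knockout array 1 alone, also chosen after seeing the data, they were 0.04, 0.02 and -0.22 for the core, the cap and the activators. Probe sets called overall numbered 33 in the reported fit. They numbered 17 without the intensity trend, 57 with a replicate block, 55 at a threshold of 0.10, 13 with knockout array 1 alone, and 15 to 141 when an array was left out. The replicate block called 0 members, with Psmb5 at a limma adjusted p of 0.0906 there against 0.385 in the reported fit. Of the 42 tested genes, 13 were below 0 and 3 above 0 under every alternative, and the other 26 changed sign at least once. The causes were not tested. The median over all probe sets stayed between -0.03 and 0.01. Both partner lists kept 0 calls in every fit. The ratio difference of Psmb9 over Psmb6 was -0.05 with knockout array 1 alone, and that of Psmb8 over Psmb5 was 0.14 with the dimmer Psmb5 probe set. The ratio comparison itself was not planned, and these settings for the ratios were chosen after seeing the data.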
